A study of Mus musculus with 12 samples.

Results

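Solute carriers are membrane proteins that move small molecules and ions across membranes, and their genes carry names of the form Slc, family number, a, member number. The genes described here were chosen by that symbol, without the mitochondrial family Slc25 and without 9 carriers of iron, glucose, lactate, cystine and amino acids that belong to other pathways (Slc2a1, Slc3a2, Slc7a1, Slc7a5, Slc7a11, Slc11a1, Slc11a2, Slc16a3 and Slc40a1), and with a mean of at least 50 counts over the libraries. The symbol pattern without these exceptions matched 293 of 35275 genes in the count files, and 124 genes of 39 families met the count minimum. Just under it were Slc12a5 and Slc7a14 (means of 45.2 and 47.1 counts), and just above it were Slc18a2 and Slc39a2 (53.4 and 62.3). The name solute carrier of the cell membrane does not hold for all of them: 40 of the 124 are known to act mainly in lysosomes, Golgi, ER or other internal membranes, and 4 are named after a carrier but carry nothing themselves (Slc4a1ap, Slc9a3r1, Slc9a3r2 and Slc7a6os).

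The libraries were made from wildtype mouse BMDMs, macrophages grown from bone marrow. All cultures had M-CSF, IL-4 and IL-10, so the DMSO group was itself an IL-4- and IL-10-treated culture, and all were treated for 6 days with DMSO (the solvent control), with olaparib (a PARP inhibitor) or with MNA (methyl-nicotinamide, a derivative of NAD). Each group had 4 libraries, numbered 1 to 4 in the labels, and these libraries held 21146291 to 31446849 counts on genes, of which 0.870% to 0.995% fell on the 124 members. Marrow cultures also hold cells other than macrophages, and whether fewer cells of a type or less RNA per cell lies behind a lower value cannot be told apart in bulk RNA. The summed level of 10 macrophage markers was 4527 to 5797 CPM (counts scaled to the TMM-adjusted library total) with DMSO, 9004 to 10780 with olaparib and 4161 to 7723 with MNA, and with olaparib 5 of them rose and 1 fell. The summed level of dendritic cell markers also differed, at 1580 to 1820 CPM with DMSO, 2438 to 2705 with olaparib and 1674 to 2409 with MNA, and that of eosinophil, basophil and mast cell markers was 38.2 to 60.3, 100.5 to 331.5 and 31.7 to 72.5 CPM. Of the dendritic cell markers, Cd209a, Clec9a, Dpp4, Flt3 and Siglech were under 1 CPM in every library. Of the 10 eosinophil, basophil and mast cell markers, 8 were, all but Ear2 and Gata2. The osteoclast and fusion markers summed to between 3492 and 4169 CPM in all libraries. The neutrophil markers summed to 1.38 to 10.7 CPM with DMSO, 2.93 to 3.93 with olaparib and 1.33 to 69.2 with MNA, with Elane, Ly6g and Prtn3 under 1 CPM in every library, and 2 of the 3 that could be tested were lower with olaparib than with MNA. The lymphocyte markers summed to 0.891 to 2.58, 2.37 to 6.55 and 2.26 to 10.0 CPM, and 5 of the 6 tested rose with MNA. The erythroid markers summed to 0.254 to 4.17, 0.495 to 0.662 and 0.0716 to 57.1 CPM, and the stromal markers to at most 6.69 CPM in any library. For the macrophage, dendritic cell, eosinophil to mast cell, neutrophil, lymphocyte and erythroid markers, the lowest MNA sum was that of MNA replicate 2. Without that library, 3 neutrophil markers rose with MNA, where 0 did over 12 libraries. Macrophage markers then had 4 up and 3 down with MNA, against 3 and 1 over 12 libraries. The part of other cells in the results was not tested.

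Solute carriers set what a macrophage can take up and release. Cationic amino acid carriers bring in arginine, the substrate of both arginase and nitric oxide synthase. Carriers in the phagosome and lysosome return amino acids, peptides, nucleosides, heme and metals from digested material to the cytosol. Zinc is moved by families working in opposite directions, with Slc30 proteins taking it out of the cytosol and Slc39 proteins bringing it in.

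MNA replicate 2 stood apart from the other MNA libraries. In 112 of the 124 members its level was nearer to the DMSO mean than to the mean of the other MNA libraries, and in 86 it lay within the range of the DMSO libraries. For 80 members the MNA libraries 1, 3 and 4 lay wholly above or below DMSO, and in 76 of these replicate 2 was nearer DMSO. It was kept as an MNA library, since its label gives it as one, and values without it are given beside the MNA results. Leaving it out lowered the common dispersion of edgeR (the squared spread between libraries of a group beyond counting noise) from 0.0333 to 0.0110. This dispersion was shared by all groups, so the library also bears on calls for olaparib.

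Levels of different genes can be compared only per length, so they are given here as RPKM (reads per kilobase of exon, scaled to the library total). In DMSO-treated BMDMs the highest level was that of Slc7a2 (ENSMUSG00000031596, chr8:40862396-40922308, + strand), the cationic amino acid transporter CAT2, at 178 ± 25.6 (SD, n = 4). Slc48a1 (ENSMUSG00000081534, chr15:97778520-97792692, + strand), which moves heme out of the phagolysosome, followed at 159.8 ± 6, and these neighbours overlapped within their SD. The taurine transporter Slc6a6 came next at 109 ± 5.67, with the creatine transporter Slc6a8 lower at 79.9 ± 6.76. Between them was Slc9a3r1 at 92.2 ± 2.02, a scaffold protein (NHERF1) that is no transporter. The zinc importer Slc39a1 had 72.8 ± 3.79, although 27.7% of its 31-base words also occur in other genes, above all a processed copy, so its counts are uncertain. Next came carriers of internal membranes, the lysosomal nucleoside transporter Slc29a3 at 67.8 ± 7.51 and the ER sugar phosphate transporter Slc37a2 at 61.2 ± 5.69. They were followed by the fatty acid transporter Slc27a6 (50.1 ± 12.6), the small neutral amino acid transporter Slc38a2 (47.5 ± 5.35), the lysosomal peptide and histidine transporter Slc15a3 (46.5 ± 0.741) and the zinc importer Slc39a6 (35.7 ± 3.05). The lowest member on this scale was Slc37a1 at 0.115 ± 0.0115.

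**Figure D1:**
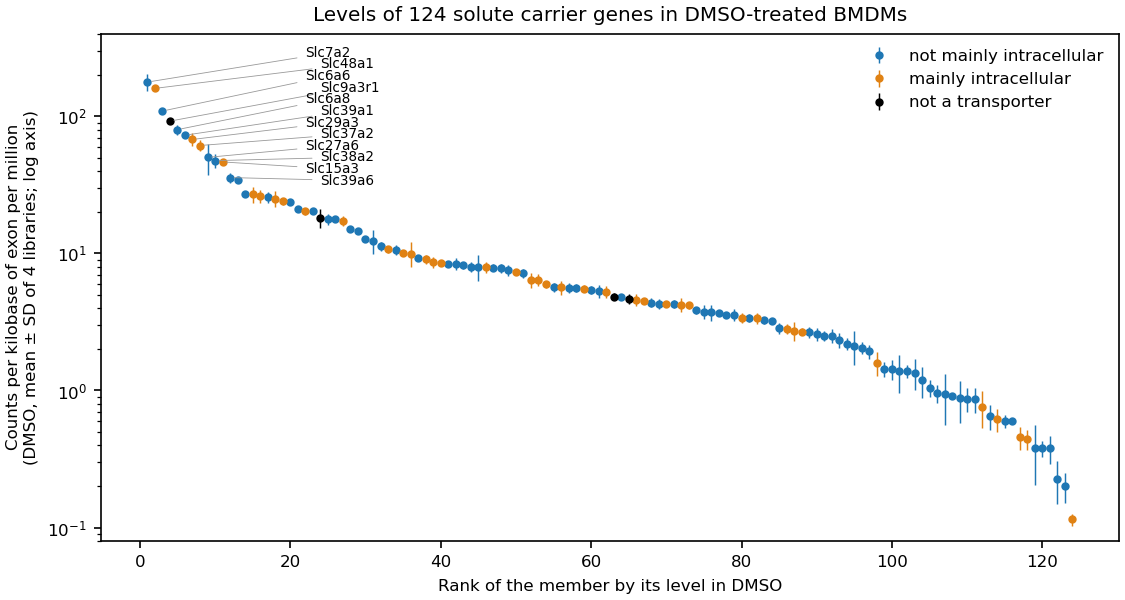
Mean level (SD as bars, n = 4 libraries) of each of the 124 members in DMSO-treated BMDMs in RPKM on a log axis, ranked from highest to lowest and coloured by whether the protein acts mainly in internal membranes. Members of internal membranes, such as Slc48a1, Slc29a3, Slc37a2 and Slc15a3, stand among the 12 named at the top.

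The first question was what olaparib did to these genes. With olaparib, 22 of the 124 members rose and 19 fell against DMSO at an adjusted p under 0.05 (edgeR's quasi-likelihood test, adjusted over 12849 tested genes), where 14.3% and 12.8% of all tested genes did. For 27 members every olaparib library was above every DMSO library, and for 31 every one was below (20.7% and 20.3% of all tested genes). The median log2 fold change was -0.04 over the members and 0.00 over all tested genes, and the members' shares lay near those of all tested genes. Without MNA replicate 2 the counts were 30 up and 33 down (22.5% and 21.9% of tested genes).

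With MNA, 19 members rose and 28 fell against DMSO (16.3% and 12.3% of tested genes), and the groups did not overlap in 6 that were higher and 10 that were lower (6.24% and 6.12%). Without MNA replicate 2, 41 rose and 40 fell (27.9% and 26.7%), and the libraries were apart in 39 higher and 41 lower members (27.2% and 27.2%). Many of these calls over 12 libraries were lost when 1 library was left out. Without MNA library 1, 3 or 4 the members that rose numbered 9, 6 and 7, and 0 fell by edgeR in each of these fits, with 32, 32 and 30 falling at an unadjusted p under 0.05. Without DMSO library 2, 3 or 4 there were 9, 10 and 12 that rose and 11, 9 and 10 that fell. By DESeq2 on all 12 libraries, 23 members rose and 28 fell with MNA, with 44 of the 47 edgeR calls kept, 3 lost (Slc27a1, Slc28a2 and Slc9a4) and 7 gained. Of the 33 MNA calls of members named in the text, 5 held whichever library was left out, those of Slc15a3, Slc22a18, Slc2a6, Slc37a1 and Slc43a2. With the DMSO and MNA libraries fitted alone, 0 of the 47 MNA calls were kept by edgeR, so these 5 were lost there too. Olaparib and MNA were each compared with the same DMSO libraries, so their values stand side by side here and no overlap between them was counted. Compared with each other, 18 members were higher and 17 lower with olaparib than with MNA (10.9% and 10.9% of tested genes), with 19 higher and 10 lower without overlap (11.5% and 9.69%). The calls were 39 and 33 without MNA replicate 2 (20.9% and 21.9%).

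**Figure D2:**
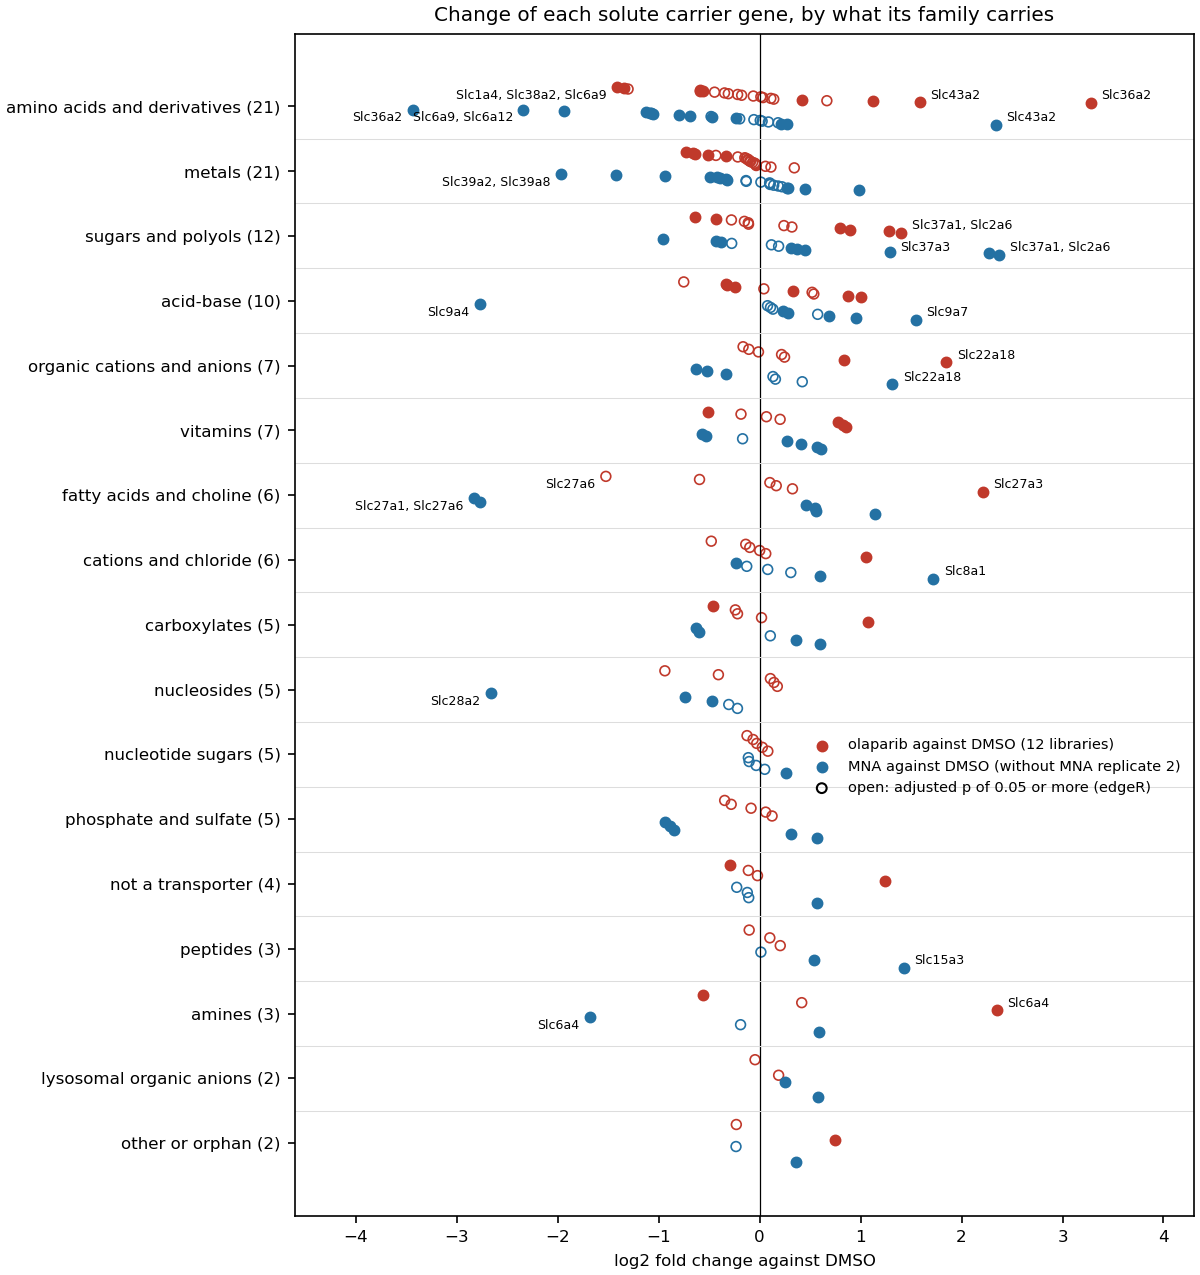
Log2 fold change against DMSO of each member (1 point per gene and treatment), in rows by what its family carries, with the number of members in brackets, for olaparib in red (12 libraries) and MNA in blue (without MNA replicate 2), filled where the adjusted p of edgeR was under 0.05. The largest value in each direction was that of Slc36a2, up with olaparib and down with MNA, and the 5 nucleotide sugar carriers lay close to 0.

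Of the 21 carriers of amino acids and related compounds, 4 rose and 5 fell with olaparib and 1 rose and 8 fell with MNA. These were 5 and 10 with olaparib, and 3 and 11 with MNA, without MNA replicate 2. Of all tested genes, 14.3% rose and 12.8% fell with olaparib, and 16.3% and 12.3% with MNA. Without MNA replicate 2 these shares were 22.5% and 21.9%, and 27.9% and 26.7%. They also stand beside the counts of each carrier class below, and no class was tested as a set. The largest change of any member with olaparib was that of Slc36a2 (ENSMUSG00000020264, chr11:55158470-55185077, - strand), a proton-coupled transporter of glycine, alanine and proline (PAT2). It had 1.92, 1.96, 1.98 and 1.87 CPM in DMSO libraries 1 to 4, 11.7, 14.5, 31.3 and 17.8 with olaparib and 0.288, 1.11, 0.154 and 0.0804 with MNA (values are always given in the order of replicates 1 to 4). All olaparib libraries were above and all MNA libraries below every DMSO library, and olaparib library 3 was the highest. The change was 3.28 with olaparib (standard error 0.46, adjusted p = 0.000702) and -2.19 with MNA (standard error 0.55, adjusted p = 0.0202), and the difference between olaparib and MNA was 5.47 (adjusted p = 5.98e-05). The MNA call was lost without MNA library 1, 3 or 4 (adjusted p up to 0.0636), and the MNA change was -3.44 without replicate 2. Its lysosomal relative Slc36a1 (PAT1) rose with olaparib from 46.1, 50.3, 55.9 and 51.1 to 61.8, 62.7, 78.8 and 68.7 CPM (log2 change 0.42, standard error 0.09, adjusted p = 0.00608). With MNA it stood at 48.2, 46.8, 41.6 and 42.7 CPM, overlapping DMSO and below every olaparib library (log2 change 0.60, adjusted p = 0.000774 for olaparib against MNA).

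Slc43a2 (ENSMUSG00000038178, chr11:75531694-75577575, + strand), the LAT4 transporter of large neutral amino acids, was higher with either treatment. Its levels were 61.1, 53.3, 59.4 and 51.3 CPM with DMSO, 152, 160.4, 209 and 154 with olaparib and 287, 52.4, 294 and 269 with MNA. The 4 olaparib libraries and MNA libraries 1, 3 and 4 were above every DMSO library, and MNA replicate 2 was among the DMSO libraries. The olaparib change was 1.59 (standard error 0.39, adjusted p = 0.012) and the MNA change 2.004 (standard error 0.39, adjusted p = 0.0142), or 2.34 without MNA replicate 2. Slc7a7, the y+LAT1 exchanger of cationic and neutral amino acids, rose with olaparib from 3.93 ± 1.01 to 8.52 ± 1.6 CPM (log2 change 1.12, standard error 0.20, adjusted p = 0.00275) and had 3.71 ± 0.64 CPM with MNA (SD, n = 4 each). The closely related y+LAT2 gene Slc7a6 went the other way with olaparib, from 17 ± 2.35 to 11.5 ± 0.886 CPM (log2 change -0.56, standard error 0.12, adjusted p = 0.00597). For both of these genes olaparib also differed from MNA, by 1.20 (adjusted p = 0.00182) for Slc7a7 and by -0.55 (adjusted p = 0.00705) for Slc7a6.

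Carriers of neutral amino acids were also among those that fell with olaparib. Slc38a2 (ENSMUSG00000022462, chr15:96687392-96699730, - strand), the SNAT2 transporter of alanine and glutamine, had 357, 411, 447 and 464 CPM with DMSO, 185, 176, 148 and 153 with olaparib and 156, 414, 239.9 and 195 with MNA. Every olaparib library was below every DMSO library (log2 change -1.34, standard error 0.24, adjusted p = 0.00267). With MNA its log2 fold change was -0.74 (adjusted p = 0.0376), or -1.08 without MNA replicate 2, and this call was lost in 8 fits that left out 1 library, those without DMSO library 2, 3 or 4, olaparib library 2 or 4, or MNA library 1, 3 or 4 (adjusted p up to 0.108). Slc1a4, the neutral amino acid exchanger ASCT1, fell with olaparib from 7.59, 9.5, 8.28 and 9.17 to 3.67, 4.05, 3.11 and 2.16 CPM (log2 change -1.41, standard error 0.26, adjusted p = 0.00301). The glutamine exchanger Slc1a5 (ASCT2) fell from 139, 145, 142 and 149 to 104, 98.7, 91 and 89.7 CPM (log2 change -0.59, standard error 0.08, adjusted p = 0.000572), and was also lower with olaparib than with MNA (log2 change -0.40, adjusted p = 0.00429). MNA values against DMSO were -0.31 for Slc1a4 and -0.18 for Slc1a5 (adjusted p = 0.345 and 0.094), and -0.48 and -0.23 without MNA replicate 2 (adjusted p = 0.0926 and 0.0132). The SNAT1 gene Slc38a1, the LAT2 gene Slc7a8 and the lysosomal arginine sensor Slc38a9 had log2 fold changes of -0.18, 0.11 and 0.01 with olaparib, and none of these was called.

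The most abundant member, Slc7a2, fell with MNA. It had 1587, 1446, 1961 and 1495 CPM with DMSO, 1152, 1167, 1401 and 1514 with olaparib and 790.3, 1385, 703 and 797 with MNA. All MNA libraries were below DMSO, with replicate 2 the highest of them, while olaparib library 4 lay within the DMSO range. The MNA change was -0.82 (standard error 0.20, adjusted p = 0.0181) and -1.08 without MNA replicate 2, and the olaparib change was -0.31 (adjusted p = 0.25, or 0.0268 without MNA replicate 2). The creatine transporter Slc6a8 had 364, 437, 426 and 439 CPM with DMSO, 282, 332, 329 and 279.7 with olaparib and 199.8, 407, 207 and 191 with MNA (log2 change -0.73, standard error 0.21, adjusted p = 0.0265, or -1.06 without replicate 2 for MNA). All 4 olaparib libraries were below DMSO, but the olaparib change (-0.45) was not called in the fit of 12 libraries (adjusted p = 0.124) and was called without MNA replicate 2 (adjusted p = 0.000235). The aromatic amino acid transporter Slc16a10 (TAT1) fell with MNA, from 60 ± 3.66 to 35.3 ± 16 CPM (log2 change -0.77, adjusted p = 0.0274, or -1.13 without replicate 2), and to 27.3 ± 2.14 CPM without replicate 2. Its olaparib change of -0.35 was not called in the fit of 12 libraries (adjusted p = 0.248). It was called without MNA replicate 2 and with the DMSO and olaparib libraries fitted alone. These MNA calls were lost without MNA library 1, 3 or 4 and without DMSO library 3, and those of Slc6a8 and Slc16a10 also without DMSO library 2 or 4, with adjusted p up to 0.061 for Slc7a2, 0.0818 for Slc6a8 and 0.0829 for Slc16a10. Slc6a6, the taurine transporter, stood at 924 ± 48, 884 ± 103 and 1004 ± 85.6 CPM with DMSO, olaparib and MNA, and neither change was called.

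Slc6a12, the betaine and GABA transporter BGT1, separated the treatments. It had 16.9, 24.7, 26.5 and 29.2 CPM with DMSO, 31.8, 40, 41.2 and 41.6 with olaparib and 5.59, 19.8, 7.29 and 6.11 with MNA. Every olaparib library was above every DMSO library, MNA libraries 1, 3 and 4 were below them, and MNA replicate 2 lay within the DMSO range. The fall with MNA was called (log2 change -1.32, standard error 0.35, adjusted p = 0.0216, or -1.94 without replicate 2), but not without DMSO library 3 or 4 or MNA library 1, 3 or 4 (adjusted p up to 0.0685). Olaparib differed from MNA by 1.99 (standard error 0.35, adjusted p = 0.0023), and against DMSO its change of 0.67 had an adjusted p of 0.151, or 0.00164 without MNA replicate 2. Slc6a4 (ENSMUSG00000020838, chr11:76998603-77032340, + strand), the serotonin transporter, is 1 of 3 amine carriers and showed the same order from a low level, with 1.88, 1.31, 0.938 and 2.79 CPM with DMSO, 8.16, 8.21, 7.53 and 11.5 with olaparib and 0.699, 0.931, 0.347 and 0.563 with MNA. The olaparib libraries were all above DMSO (log2 change 2.35, standard error 0.32, adjusted p = 0.000623). The MNA libraries were all below DMSO, replicate 2 included (log2 change -1.43, standard error 0.36, adjusted p = 0.02, or -1.68 without replicate 2), although the margin to DMSO was small and the call was lost without DMSO library 4 or MNA library 1, 3 or 4 (adjusted p up to 0.0639). The difference between olaparib and MNA was 3.79 (adjusted p = 4.45e-05).

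**Figure D3:**
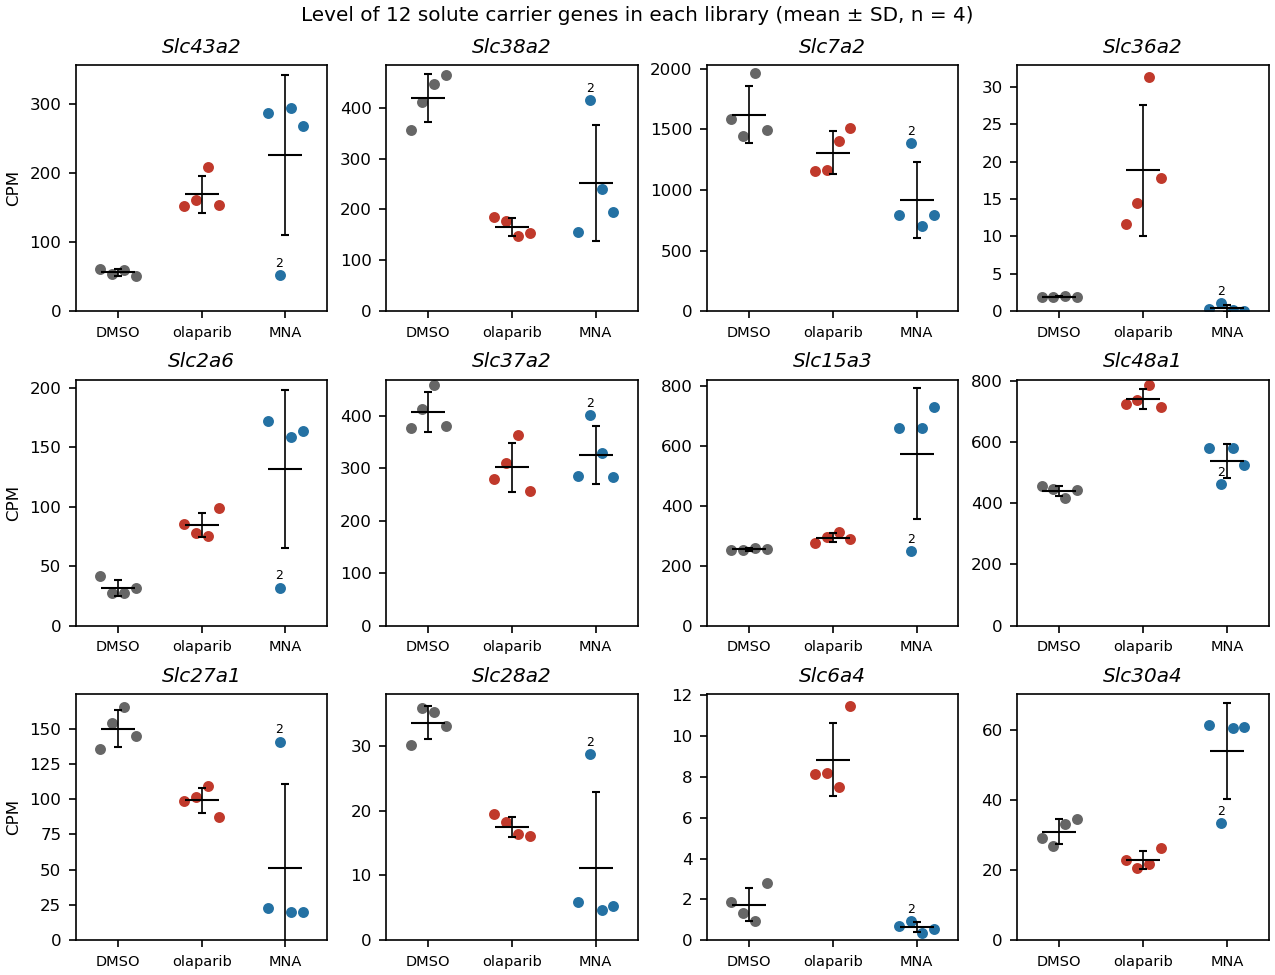
Level in CPM of 12 members in each library (points), with the mean and SD of each group (black, n = 4) and MNA replicate 2 marked 2. For Slc43a2, Slc2a6, Slc15a3, Slc27a1 and Slc28a2 this library lay beside the DMSO libraries, and Slc36a2 and Slc6a4 were above DMSO with olaparib and below it with MNA.

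Of the 21 metal carriers, 3 had a positive log2 fold change with olaparib and 11 with MNA. Among the 124 members 56 and 63 did, and among the 12849 tested genes 6489 and 6428. The median of the metal carriers was -0.11 with olaparib and 0.03 with MNA. With olaparib 0 rose and 5 fell by edgeR (1 and 7 at an unadjusted p under 0.05, 1 and 6 by DESeq2), and with MNA 2 rose and 7 fell. Leaving out MNA replicate 2 gave 1 and 7 with olaparib, and 4 and 8 with MNA. Those that fell with olaparib were the zinc carriers Slc30a1, Slc39a10, Slc39a14 and Slc39a6 and, named after its values were seen, Slc41a3 of a magnesium carrier family (log2 change -0.33, adjusted p = 0.0382, or 0.0531 with the replicate number as a block). The exporter Slc30a1 (ZnT1) of the plasma membrane had 54.1, 66.6, 81.9 and 55.7 CPM with DMSO and 38.9, 40.3, 53.5 and 33.3 with olaparib, with no overlap (log2 change -0.64, standard error 0.16, adjusted p = 0.0126). The importer Slc39a10 (ZIP10) had 49.3, 50.5, 50.6 and 54.3 and 31.2, 38.6, 32.7 and 27 CPM (log2 change -0.66, standard error 0.11, adjusted p = 0.00147), and was lower with olaparib than with MNA too (log2 change -0.78, adjusted p = 0.000429). Slc39a14 (ZIP14), which also carries iron, fell with olaparib from 50.4 ± 1.56 to 30.5 ± 3.07 CPM (log2 change -0.73, adjusted p = 0.0174) and with MNA to 32.4 ± 12.5 CPM (log2 change -0.64, adjusted p = 0.0312, or -0.94 without replicate 2). The olaparib call of Slc39a14 was lost without olaparib library 4 (adjusted p = 0.055) and its MNA call without any 1 DMSO library or MNA library 1, 3 or 4 (adjusted p up to 0.0939). Slc39a6 (ZIP6) fell from 146 ± 12.4 to 102 ± 5.21 CPM with olaparib (log2 change -0.52, adjusted p = 0.00428), and with MNA by a log2 fold change of -0.38, or -0.49 without replicate 2 (adjusted p = 0.0227, up to 0.0733 without DMSO library 2 or 4 or MNA library 1, 3 or 4).

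Other metal carriers were called with MNA. Slc39a8 (ZIP8), an importer of zinc and manganese that macrophages induce in inflammation, had 26.9, 26.7, 27.6 and 28.6 CPM with DMSO, 23.8, 25.4, 22.1 and 27.8 with olaparib and 9.95, 24.1, 10.3 and 10.3 with MNA. Its MNA libraries were all below DMSO, with replicate 2 far above the others (log2 change -1.002, standard error 0.24, adjusted p = 0.0184, or -1.42 without replicate 2). Slc39a2 (ZIP2) showed the same at a low level, with 2.63, 2.89, 3.85 and 2.57 CPM with DMSO and 0.535, 2.18, 1.2 and 0.523 with MNA (log2 change -1.41, adjusted p = 0.022, or -1.97 without replicate 2). Both calls were lost without MNA library 1, 3 or 4, and that of Slc39a2 also without DMSO library 3 (adjusted p up to 0.0613 and 0.0654). Olaparib differed from MNA for both, by 0.86 for Slc39a8 and 1.30 for Slc39a2 (adjusted p = 0.0257 and 0.0278), but not in fits without olaparib library 2 or 4 or MNA library 1, 3 or 4, nor for Slc39a2 without olaparib library 1 (adjusted p up to 0.0747 and 0.0653). The vesicular zinc exporter Slc30a4 (ZnT4) rose with MNA, with 29.1, 26.8, 33.2 and 34.6 CPM with DMSO, 23, 20.5, 21.8 and 26.3 with olaparib and 61.4, 33.3, 60.4 and 60.8 with MNA. MNA libraries 1, 3 and 4 were above DMSO, replicate 2 was within its range, and all olaparib libraries were below. Its MNA change was 0.80, or 0.98 without replicate 2 (adjusted p = 0.0144), lost without MNA library 3 or 4 (up to 0.051). The olaparib change of -0.43 was not called (adjusted p = 0.081) but was with the replicate number as a block (adjusted p = 0.0297), and olaparib differed from MNA by -1.24 (adjusted p = 0.000583). This olaparib change was also called with the DMSO and olaparib libraries fitted alone and without MNA replicate 2. The copper importer Slc31a1 and the zinc importer Slc39a1 had olaparib changes of -0.05 and -0.04 and were not called with either treatment over 12 libraries. Their MNA changes were -0.22 and 0.07, and -0.32 and 0.10 without MNA replicate 2, of which that of Slc31a1 was then called (adjusted p = 0.00131).

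Among 12 carriers of sugars and polyols, 4 rose and 2 fell with olaparib, and 3 rose and 0 fell with MNA by edgeR (5 and 2 at an unadjusted p under 0.05, 3 and 0 by DESeq2, and 6 and 3 by edgeR without MNA replicate 2). Slc2a6 (ENSMUSG00000036067, chr2:27021363-27027998, - strand), the lysosomal glucose transporter family member GLUT6, had 41.5, 27, 27.6 and 32 CPM with DMSO, 85.7, 78, 75.7 and 98.8 with olaparib and 172, 32, 158 and 164 with MNA. Olaparib libraries lay above DMSO and MNA libraries 1, 3 and 4 above olaparib, while MNA replicate 2 was among the DMSO libraries. The log2 fold changes were 1.40 with olaparib (standard error 0.39, adjusted p = 0.0202) and 2.04 with MNA (standard error 0.39, adjusted p = 0.0142), or 2.37 without MNA replicate 2. Slc37a1, a sugar phosphate carrier of the ER, rose in the same order from 1.33 ± 0.134 CPM with DMSO to 3.25 ± 0.654 with olaparib and 5.15 ± 2.7 with MNA (log2 changes 1.28 and 1.94, adjusted p = 0.0348 and 0.0142, the MNA value being 2.27 without replicate 2). The abundant Slc37a2 of the same family fell with olaparib, with 376, 412, 458 and 380.2 CPM with DMSO and 279, 309, 364 and 256 with olaparib (log2 change -0.43, adjusted p = 0.0305), and had 325 ± 55.2 CPM with MNA (adjusted p = 0.077, or 0.00328 without MNA replicate 2). The olaparib calls of these 3 genes were lost in single fits, for Slc2a6 without DMSO library 2, 3 or 4 or olaparib library 4, for Slc37a1 without any 1 DMSO or olaparib library and for Slc37a2 without DMSO library 2 or 3 or olaparib library 1, 2 or 4 (adjusted p up to 0.059, 0.0932 and 0.0901). The urate transporter Slc2a9 rose with olaparib from 5.29 ± 0.756 to 9.82 ± 1.54 CPM (log2 change 0.89, adjusted p = 0.00384), and the myo-inositol transporter Slc5a3 fell from 10.4 ± 1.54 to 6.69 ± 1.01 CPM (log2 change -0.64, adjusted p = 0.0102). GLUT3, encoded by Slc2a3, was not called over 12 libraries (olaparib -0.28, MNA -0.54), and its MNA change was -0.96 without MNA replicate 2 and was then called (adjusted p = 0.00155).

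Slc48a1, the heme carrier and the only gene of its family, was among the members with the smallest p for olaparib. Its levels were 455, 445, 416 and 442 CPM with DMSO, 722, 738, 784 and 714 with olaparib and 579, 463, 579 and 524 with MNA. Every olaparib library exceeded every MNA library, and every MNA library exceeded every DMSO library, replicate 2 by the smallest margin. The change was 0.75 with olaparib (standard error 0.08, adjusted p = 9.98e-05) and 0.29 with MNA, or 0.36 without replicate 2 (adjusted p = 0.0232), and olaparib exceeded MNA by 0.46 (adjusted p = 0.00172). The MNA call was lost without DMSO library 2, 3 or 4 or MNA library 1, 3 or 4 (adjusted p up to 0.0741). Lysosomal Slc15a3 (ENSMUSG00000024737, chr19:10839727-10859362, + strand) was called with MNA, with 252, 252, 260.3 and 256 CPM with DMSO, 276, 297, 312 and 291 with olaparib and 659.9, 249, 661 and 730.0 with MNA. MNA libraries 1, 3 and 4 were above all others and replicate 2 was below every DMSO library (log2 change 1.17, standard error 0.24, adjusted p = 0.0142, or 1.43 without replicate 2). All olaparib libraries were above DMSO, but the olaparib change of 0.20 was not called over 12 libraries (adjusted p = 0.546). It was called without MNA replicate 2, and with the DMSO and olaparib libraries fitted alone. Olaparib was lower than MNA (log2 change -0.97, adjusted p = 0.0147). Of the 31-base words of Slc15a3, 27.6% occur in other genes, mainly Tmem132a on the opposite strand, and the strand setting of the counts is not given in the sources used here. Its relative Slc15a4, which works in endosomal Toll-like receptor signaling, had 53.8 ± 1.8, 57.7 ± 3.67 and 53.5 ± 1.29 CPM, and the sialic acid carrier Slc17a5 (sialin) had 94.8 ± 10.2, 108 ± 7.7 and 106 ± 16.4 CPM, in the order DMSO, olaparib and MNA, with no call over 12 libraries. The rise of Slc17a5 with MNA was called without MNA replicate 2 (0.25, adjusted p = 0.0361).

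Of the 6 carriers of fatty acids and choline, 1 rose with olaparib, and 3 rose and 1 fell with MNA. Leaving out MNA replicate 2 gave 3 up and 2 down with olaparib, and 4 up and 2 down with MNA. Slc27a1 (ENSMUSG00000031808, chr8:71568882-71587302, + strand), the long-chain fatty acid transporter FATP1, had 135, 154, 166 and 144 CPM with DMSO, 98.8, 102, 109 and 87.4 with olaparib and 23, 141, 20 and 19.8 with MNA. MNA libraries 1, 3 and 4 were far below every other library, and MNA replicate 2 lay within the DMSO range. The MNA change was therefore -1.56 with that library (standard error 0.54, adjusted p = 0.0493, lost by DESeq2 and without any 1 other library, up to 0.123) and -2.83 without it (standard error 0.09). All olaparib libraries were below DMSO, with a change of -0.60 that was called without MNA replicate 2 (adjusted p = 3.31e-05) and not with it (adjusted p = 0.421). Slc27a6 (FATP6) had the same pattern, with 82.8, 124, 133 and 158 CPM with DMSO, 37.4, 54.1, 38.2 and 43.8 with olaparib and 13.4, 116, 19.2 and 21.9 with MNA. Its olaparib change of -1.52 had an adjusted p of 0.0596, or 0.0278 with the replicate number as a block, and its MNA change of -1.54 had one of 0.0544, or was -2.77 (adjusted p = 1.74e-07) without MNA replicate 2. The olaparib change was also called by DESeq2, with the DMSO and olaparib libraries fitted alone, and without MNA replicate 1 or 2. The MNA change was also called by DESeq2 and with the block. Slc27a3 (FATP3) rose with olaparib from 3.84, 1.82, 1.91 and 2.06 to 9.18, 10.7, 13.8 and 10.6 CPM (log2 change 2.21, standard error 0.37, adjusted p = 0.00186), and its MNA libraries reached at most 8.31 CPM (adjusted p = 0.0783, or 0.00749 without MNA replicate 2). Slc27a4 (FATP4) and the choline transporter Slc44a1 rose with MNA, by 0.36 and 0.44 (adjusted p = 0.0205 and 0.0144), and by 0.46 and 0.55 without MNA replicate 2. The first call was lost without DMSO library 2 or 3 or MNA library 1, 3 or 4 (up to 0.0654) and the second without MNA library 3 (adjusted p = 0.051).

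Of the 5 nucleoside carriers, 3 fell with MNA by edgeR and 2 by DESeq2, and 0 were called with olaparib by edgeR (0 up and 1 down at an unadjusted p under 0.05, 0 up and 1 down by DESeq2, and 0 up and 2 down by edgeR without MNA replicate 2). Slc28a2, the concentrative purine nucleoside transporter CNT2, had 30.2, 35.8, 35.2 and 33 CPM with DMSO, 19.4, 18.2, 16.4 and 16 with olaparib and 5.92, 28.7, 4.67 and 5.27 with MNA. All olaparib libraries lay between the DMSO libraries and MNA libraries 1, 3 and 4 (log2 change -0.94, adjusted p = 0.147 for olaparib, log2 change -1.59, adjusted p = 0.0307, or -2.66 without replicate 2 for MNA). Without MNA replicate 2 both were called, at -0.94 and -2.66 (adjusted p = 2.36e-06 and 8.72e-10). Its counts are uncertain, since 46.3% of its words occur in Gm14085. The equilibrative transporter Slc29a1 (ENT1) fell with MNA from 33.6 ± 3.33 to 25.7 ± 3.4 CPM (log2 change -0.38, adjusted p = 0.02, or -0.47 without replicate 2) and had 37.9 ± 1.7 CPM with olaparib, above MNA (log2 change 0.56, adjusted p = 0.0021). Lysosomal Slc29a3 (ENT3) fell with MNA from 395 ± 43.8 to 267 ± 66.8 CPM (log2 change -0.57, adjusted p = 0.022, or -0.74 without replicate 2), and with olaparib it had 298 ± 29.2 CPM (adjusted p = 0.0608, or 0.0472 with the replicate number as a block). This olaparib change (-0.41) was also called by DESeq2, with the DMSO and olaparib libraries fitted alone, and without MNA replicate 2 or 4. The MNA call of Slc28a2 was lost by DESeq2. Those of the 3 genes were lost without MNA library 1, 3 or 4 and without single DMSO libraries (replicates 2, 3 and 4 for Slc28a2, 2 for Slc29a1 and 3 for Slc29a3), with adjusted p up to 0.0874, 0.0655 and 0.0694.

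For the 5 nucleotide sugar carriers of the Golgi, which supply glycosylation, 0 were called with olaparib or MNA by edgeR or DESeq2, and 0 had an unadjusted p under 0.05. In the fit without MNA replicate 2, 1 of them rose with MNA. Slc35a2, the UDP-galactose carrier, had 30.3, 28.4, 26.7 and 26.8 CPM with DMSO, 26.3, 26.6, 26.4 and 27.9 with olaparib and 27.1, 29.5, 25.9 and 28.6 with MNA, and these overlapped. Of 5 phosphate and sulfate carriers 3 fell with MNA (2 rose and 3 fell without MNA replicate 2), among them the phosphate importer Slc20a1 (PiT1), from 42.1, 43.6, 42.2 and 47.6 to 23.9, 42.3, 25.3 and 23.8 CPM (log2 change -0.61, standard error 0.16, adjusted p = 0.0212, or -0.84 without replicate 2, up to 0.0685 without DMSO library 4 or MNA library 1, 3 or 4). Of its words, 10.9% occur in other genes on the opposite strand. Olaparib libraries of Slc20a1 had 36.1 ± 1.06 CPM (log2 change -0.28, adjusted p = 0.193, or adjusted p = 0.000941 without MNA replicate 2).

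Folate carriers moved in opposite directions. Slc19a1, the reduced folate carrier, fell with olaparib from 13.1, 11.1, 11.2 and 11.3 to 7.74, 8.05, 9.38 and 7.52 CPM (log2 change -0.51, standard error 0.13, adjusted p = 0.0138) and with MNA to 8.18, 10.8, 7.76 and 7.44 CPM (log2 change -0.45, adjusted p = 0.0279, or -0.57 without replicate 2). Slc46a1, the proton-coupled folate transporter that also takes up heme, rose with olaparib from 6.33, 6.3, 4.86 and 6.29 to 9.26, 10.5, 10.4 and 10.5 CPM (log2 change 0.77, standard error 0.14, adjusted p = 0.00247) and with MNA to 9.05, 6.16, 8.49 and 8.65 CPM (log2 change 0.44, adjusted p = 0.0331, or 0.56 without replicate 2). In both genes the olaparib and DMSO libraries were apart. The MNA calls were lost without MNA library 1, 3 or 4 and without DMSO library 2, 3 or 4, and for Slc19a1 also without DMSO library 1 (adjusted p up to 0.0861 and 0.0922). Over all 7 members classed here, mainly by gene family, as vitamin carriers, 3 rose and 1 fell with each treatment. Leaving out MNA replicate 2 gave 4 up and 2 down with MNA.

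The monocarboxylate transporter Slc16a1 (MCT1), which carries lactate and pyruvate, fell with both treatments, from 41.4, 47.9, 46.6 and 51.1 CPM with DMSO to 34.4, 30.7, 34.3 and 36 with olaparib (log2 change -0.47, adjusted p = 0.0167) and 27.9, 44.1, 31.6 and 32.8 with MNA (log2 change -0.46, adjusted p = 0.0232, or -0.60 without replicate 2). The olaparib call was lost without DMSO library 4 or olaparib library 2 (adjusted p up to 0.0506), and the MNA call without DMSO library 2, 3 or 4 or MNA library 1, 3 or 4 (up to 0.0706). Slc16a7 (MCT2) fell with MNA, from 16.3 ± 1.75 to 11.9 ± 2.95 CPM (log2 change -0.46, adjusted p = 0.043, or -0.63 without replicate 2), a call that 10 of the 12 single libraries removed, all but DMSO library 1 and MNA replicate 2 (up to 0.123). Slc16a6 (MCT7) was lower with olaparib (11 ± 1.81 CPM) than with MNA (15.7 ± 2.22 CPM, log2 change -0.51, adjusted p = 0.0221, up to 0.0668 without olaparib library 4 or MNA library 3 or 4). It shares 22.4% of its words with other genes, mainly Amz2. Of the 5 carboxylate carriers, 1 rose and 1 fell with olaparib, and 2 fell with MNA (2 rose and 2 fell without MNA replicate 2).

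Among the ion carriers, of 10 carriers of acid and base equivalents, 3 rose and 3 fell with olaparib, and 1 rose and 1 fell with MNA. Leaving out MNA replicate 2 gave 3 and 4 with olaparib, and 5 and 1 with MNA. The anion exchanger Slc4a2 (AE2) and the sodium bicarbonate carrier Slc4a7 fell with olaparib, from 63 ± 5.74 to 49.9 ± 5.66 CPM (log2 change -0.34, adjusted p = 0.0169) and from 56 ± 1.34 to 47.5 ± 2.67 CPM (log2 change -0.24, adjusted p = 0.0204). Organellar sodium-proton exchangers were not alike, since Slc9a9 rose with olaparib from 3.5 ± 0.658 to 7.04 ± 1.26 CPM (log2 change 1.01, adjusted p = 0.0188) and Slc9a8 fell from 38 ± 2.25 to 30.3 ± 2.43 CPM (log2 change -0.33, adjusted p = 0.0241). The olaparib calls of Slc4a2 (without DMSO library 2), Slc4a7 (DMSO library 3 or olaparib library 4), Slc9a9 (DMSO library 2 or olaparib library 3) and Slc9a8 (DMSO library 3 or olaparib library 2, 3 or 4) were lost without the libraries named, with adjusted p up to 0.0508, 0.0637, 0.058 and 0.0745. Slc9a7 rose and Slc9a4 fell with MNA, with log2 changes of 1.26 and -1.54 (adjusted p = 0.0261 and 0.0486), and of 1.55 and -2.77 without MNA replicate 2. The call of Slc9a7 was lost without DMSO library 1, 2 or 4 or MNA library 1, 3 or 4 (up to 0.0795) and that of Slc9a4 by DESeq2 and without any 1 library but MNA replicate 2 (up to 0.125). Of the words of Slc4a2 14.2% and of Slc9a4 19.9% occur in other genes, mainly on the opposite strand.

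Of the 6 carriers of other cations and chloride, 1 rose with olaparib and 2 rose with MNA (2 rose and 1 fell without MNA replicate 2). Slc8a1, the sodium-calcium exchanger NCX1, rose from 8.16, 7.05, 7.47 and 5.87 CPM with DMSO to 15.3, 14.6, 17.6 and 11.7 with olaparib (log2 change 1.05, standard error 0.32, adjusted p = 0.03) and 26.2, 6.66, 20.8 and 23 with MNA (log2 change 1.42, adjusted p = 0.0159, or 1.72 without replicate 2), with MNA replicate 2 within the DMSO range. The olaparib call was lost without DMSO library 2, 3 or 4 or olaparib library 1, 2 or 3 (adjusted p up to 0.0807) and the MNA call without MNA library 3 or 4 (up to 0.052). Slc12a2, the NKCC1 cotransporter of sodium, potassium and chloride, had an olaparib change of -0.48 that was called with the replicate number as a block (adjusted p = 0.0124) and not without it (adjusted p = 0.156). Slc22a18, an organic cation carrier, rose with both treatments from 1.59, 1.58, 1.47 and 1.59 CPM with DMSO to 4.8, 4.79, 6.86 and 6.1 with olaparib and 2.92, 2.18, 4.48 and 4.18 with MNA. All libraries of both treatments, MNA replicate 2 included, were above DMSO (log2 changes 1.85 and 1.14, adjusted p = 0.000304 and 0.0142, the MNA value being 1.31 without replicate 2). Of the 7 carriers of organic cations and anions, 2 rose with olaparib, and 1 rose and 1 fell with MNA (3 up with olaparib, and 1 up and 3 down with MNA, without MNA replicate 2). The other that rose with olaparib, named after its values were seen, was Slc22a4, a carrier of ergothioneine and carnitine, from 13.6 ± 1.48 to 24.3 ± 0.719 CPM (log2 change 0.84, standard error 0.09, adjusted p = 0.000103), against 10.9 ± 0.788 CPM with MNA.

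The clearest olaparib change by its p was in a gene that is no transporter. Slc9a3r2 (ENSMUSG00000002504, chr17:24639286-24650327, - strand), the NHERF2 scaffold that tethers sodium-proton exchangers and other membrane proteins, had 50.4, 54.3, 37.1 and 51.1 CPM with DMSO, 103, 128, 115 and 112 with olaparib and 39.9, 44.3, 44.8 and 38.3 with MNA. Olaparib libraries were apart from all others (log2 change 1.25, standard error 0.11, adjusted p = 3.57e-05, and log2 change 1.45, adjusted p = 1.28e-05 against MNA). Its relative Slc9a3r1 had 177 ± 3.89 CPM with DMSO, 175 ± 18.7 with olaparib and 239 ± 50.5 with MNA (log2 change 0.43, adjusted p = 0.034, or 0.57 without replicate 2 for MNA, lost without any 1 DMSO library or MNA library 1, 3 or 4, up to 0.106). Slc7a6os fell with olaparib (log2 change -0.30, adjusted p = 0.0205, up to 0.0633 without DMSO library 2 or 3 or olaparib library 2 or 3), and Slc4a1ap was not called (adjusted p = 0.274).

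**Figure D4:**
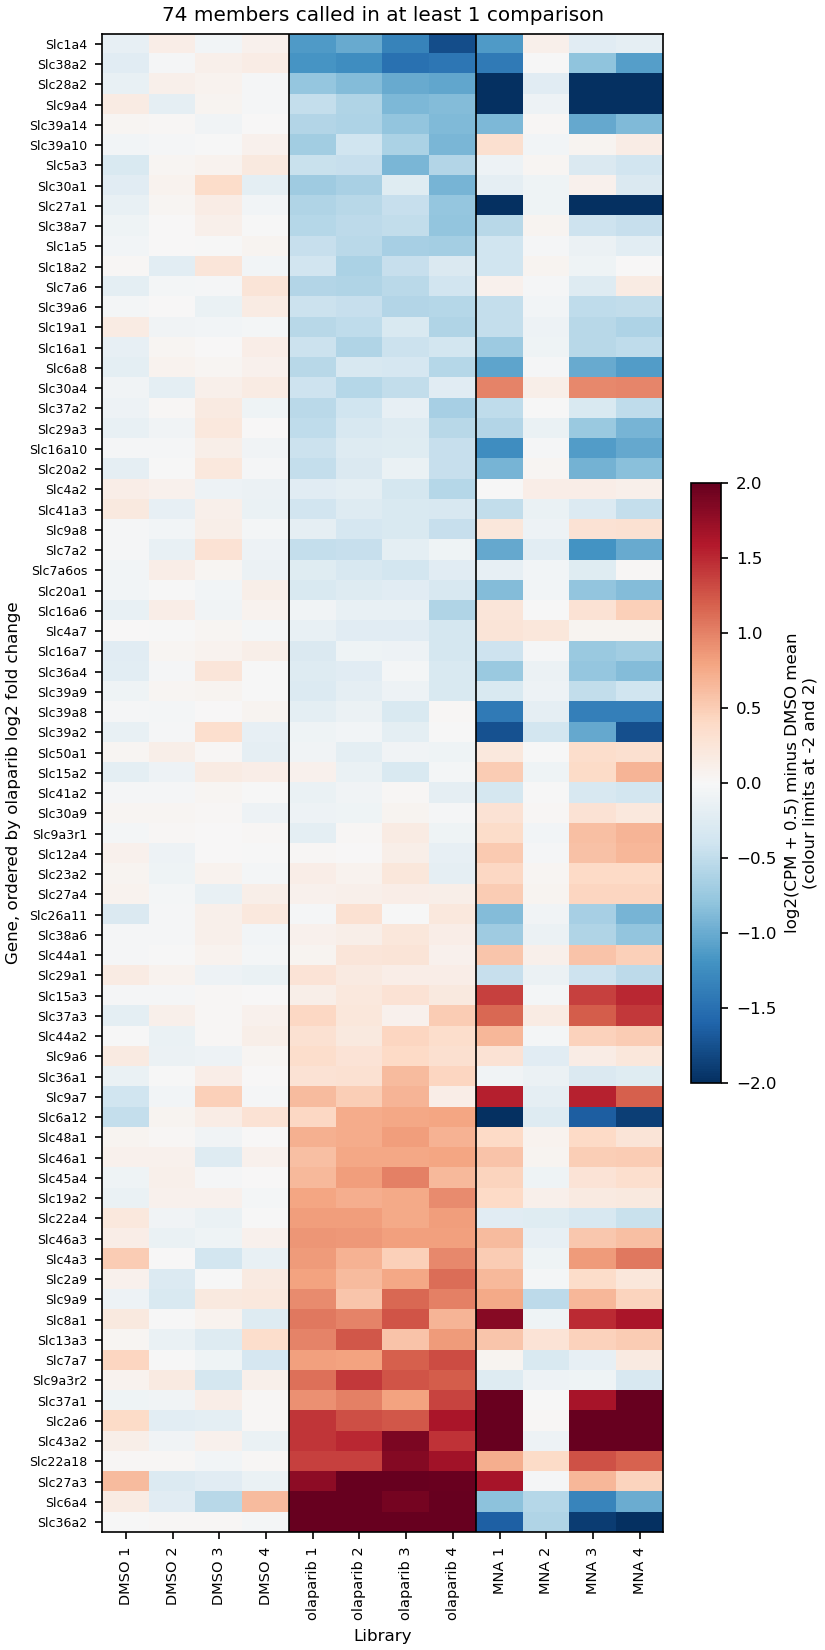
Log2(CPM + 0.5) of 74 members called in at least 1 of the 3 comparisons (rows, ordered by their olaparib change) in each of the 12 libraries (columns), minus the mean of the DMSO libraries, with the colour limits at -2 and 2. The column of MNA replicate 2 is close to the DMSO columns in most rows, and Slc36a2 and Slc6a4 in the bottom rows are red with olaparib and blue with MNA.

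By place in the cell, 14 of the 80 carriers not known as mainly intracellular rose and 14 fell with olaparib, and 9 rose and 23 fell with MNA, where the shares of all tested genes were 14.3% and 12.8% with olaparib and 16.3% and 12.3% with MNA. Of the 40 mainly intracellular ones, 7 rose and 4 fell with olaparib, and 9 rose and 5 fell with MNA. Without MNA replicate 2, MNA raised 21 and lowered 33 of the first and raised 19 and lowered 7 of the second (27.9% and 26.7% of tested genes). The 80 hold members at the cell membrane and members without an assigned place, and no test of this difference was run. Against the same shares of tested genes, transporters with other symbols (24 tested) had 4 up and 3 down with olaparib and 4 up and 5 down with MNA, and 8 partner proteins and regulators of carriers (such as Bsg, Emb and Wnk1) had 1 up and 1 down with olaparib and 3 up and 1 down with MNA. The 9 excepted carriers had 5 up and 4 down with olaparib and 4 up and 4 down with MNA.

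Promoters (a short window around each start, RefSeq on GRCm38.p6) were matched by symbol for 92 of the 124 members. An E-box (CACGTG, bound by TFEB, MYC and related factors) was found in those of 18 members, 19.6%, against 11.9% of tested genes with a promoter and 8.09% of all genes with a promoter. The core of the antioxidant response element (TGACNNNGC, either strand) was found in 22 members, 23.9%, against 17.1% of tested genes with a promoter. Counted by promoter, since a gene can have several, it was in 19.4% of those of members, 14.4% of those of tested genes and 12.4% of all. The E-box was in 14.7%, 9.99% and 7.15% of these promoters. Among the members with a promoter, the E-box was in 7 of 19 that fell and 1 of 17 that rose with MNA, and in 3 of 16 that fell and 3 of 18 that rose with olaparib. The antioxidant response element was in 6 of 16 that fell and 4 of 18 that rose with olaparib, and in 7 of 19 that fell and 2 of 17 that rose with MNA. By promoter, the E-box was in 7 of 35 for those that fell and 1 of 22 for those that rose with MNA. With olaparib it was in 3 of 20 and 3 of 24. For the antioxidant response element these were 8 of 35 and 2 of 22 with MNA. With olaparib they were 7 of 20 and 4 of 24. The numbers are small and were not tested, and a match of letters shows no binding. The stretches below, 5′ to 3′, are shown for members that changed, with the motif in capitals. They are those of E-box members that fell with MNA (Slc27a1, Slc39a8 and Slc20a1) and of Slc38a2, which fell with olaparib and has an antioxidant response element match. Each motif lies before a RefSeq start. For Slc27a1 and Slc39a8 that start and the stretch lie inside the gene, past its first base (chr8:71568882 and chr3:135825279).
Slc27a1 (chr8:71570372-71570417, + strand): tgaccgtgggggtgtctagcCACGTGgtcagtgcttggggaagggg
Slc39a8 (chr3:135825566-135825611, + strand): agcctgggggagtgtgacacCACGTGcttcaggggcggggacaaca
Slc20a1 (chr2:129198731-129198772, + strand): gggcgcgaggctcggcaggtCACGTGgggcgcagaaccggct
Slc38a2 (chr15:96699729-96699775, - strand): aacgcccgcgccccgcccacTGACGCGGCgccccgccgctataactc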

How the data were processed

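The deposited values are unnormalized read counts for Ensembl genes, which the authors made from stranded, single-end libraries with STAR 2.5.2b (genome GRCm38.p5). The strand setting of the counts is not given in the sources used here. Gene positions and exon lengths came from GENCODE M21 (GRCm38). The 12 libraries held 21146291 to 31446849 counts, and 12849 of 35275 genes passed filterByExpr (minimum count 10, minimum total 15). All 12 entered 1 fit of edgeR 4.0.16 (R 4.3.3, quasi-likelihood test, TMM, group only), with Benjamini-Hochberg adjustment over all tested genes and a threshold of 0.05. CPM used TMM-scaled library totals, with means ± SD over the libraries of a group. Reads were not deduplicated here, so counts carry counting error and amplification error alike.

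The members, their roles and the gene lists were chosen with earlier results of these data known. Named members are, per comparison, the called members with the 6 largest and 6 smallest changes among those without overlap (for MNA against DMSO, of replicates 1, 3 and 4), the 12 highest DMSO levels, a list of macrophage and family representatives, and the members that are no transporters. A member named by this rule is not reported here. Alternatives were DESeq2 1.42.0, RLE and upper quartile scaling, no filter, the replicate number as a block, 2 groups alone, and each library left out. Others were an adjusted p under 0.01, a change of at least 2-fold, member minimums of 20 and 200 counts, and only carriers not known as mainly intracellular. On simulated counts for olaparib against DMSO (12849 genes, 200 changed), edgeR recovered 157 with 9 false calls and DESeq2 recovered 164 with 36. The share of 31-base words of a gene's transcripts found in other genes marked uncertain counts.

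For these libraries the paper names 4 donor mice in one legend and 3 in another. Each library's deviation from its group mean was correlated (Pearson r, over genes) between libraries of 1 number. For olaparib with DMSO r was 0.249, 0.209, 0.292 and 0.421, and each olaparib library correlated best with the DMSO library of its own number. The fit used for the calls still had no block, so its olaparib p-values are unpaired. The replicate number entered as a block only in alternative fits. For MNA with DMSO r was 0.297, 0.128, -0.025 and 0.256, and only MNA libraries 1 and 4 correlated best with their own number. Where cultures share a mouse, p-values without the block measure the spread between the libraries.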

Additional observations from a re-analysis of the deposited data

Results flagged for a closer look

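Within groups of 4 libraries, the highest or lowest value was tested for its gap to the nearest other, as a share of the group's range (Dixon's test at 95%), in 195 groups of named members. Chance flags about 1 in 20 groups. There were 24 flags, 16 of them for MNA replicate 2, 3 for DMSO replicate 3, 2 each for DMSO replicate 1 and olaparib replicate 1, and 1 for olaparib replicate 3. Some members were named because MNA replicates 1, 3 and 4 lay apart from DMSO. That rule left replicate 2 out and so favours flags for it. Its count therefore cannot be set against the chance rate.

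MNA replicate 2 was the highest MNA library for Slc39a8 (share 0.975), Slc27a1 (0.973), Slc28a2 (0.948), Slc39a6 (0.940), Slc6a8 (0.928), Slc20a1 (0.921), Slc27a6 (0.917), Slc39a14 (0.901), Slc6a12 (0.881), Slc9a4 (0.881), Slc16a10 (0.875) and Slc7a2 (0.862). It was the lowest for Slc30a4 (0.966), Slc2a6 (0.900), Slc43a2 (0.894) and Slc15a3 (0.854). The library was thus nearer DMSO on both sides.

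In the DMSO group, replicate 3 was lowest for Slc46a1 (0.971, 4.86 CPM) and Slc22a18 (0.906, 1.47 CPM) and highest for Slc9a8 (0.895, 41.4 CPM), and replicate 1 was highest for Slc19a1 (0.905, 13.1 CPM) and Slc27a3 (0.881, 3.84 CPM). With olaparib, replicate 1 was lowest for Slc46a1 (0.930, 9.26 CPM) and Slc6a12 (0.838, 31.8 CPM), and replicate 3 was highest for Slc43a2 (0.860, 209 CPM).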

How the results depend on the processing

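Counts of members that rose and fell are given as pairs, first for olaparib and then for MNA, each against DMSO, and last for olaparib against MNA. They were 22 and 19, 19 and 28, and 18 and 17. Without MNA replicate 2 and with the replicate block together they were 35 and 37, 44 and 42, and 38 and 34. With the 2 groups alone they were 32 and 32, 0 and 0 (26 and 33 at an unadjusted p under 0.05, edgeR), and 14 and 10. At an adjusted p under 0.01 they were 15 and 7, 0 and 0 (edgeR, 31 and 37 at an unadjusted p under 0.05), and 12 and 7. With a change of at least 2-fold they were 12 and 2, 8 and 8, and 8 and 2. A mean of at least 200 counts gave 12 and 17, 16 and 24, and 11 and 16, and the carriers not known as mainly intracellular gave 14 and 14, 9 and 23, and 14 and 10, both from fewer members. For the other moves the cause was not tested. DESeq2 gave 23 and 23, 23 and 28, and 22 and 22. The replicate block gave 23 and 21, 21 and 32, and 20 and 19, and of the 41 olaparib calls it kept 38, lost 3 (Slc18a2, Slc41a3 and Slc4a3) and gained 6. For MNA and for olaparib against MNA it lost 0 calls and gained 6 and 4.

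With 1 library left out, members that rose numbered 16 to 30 with olaparib, 6 to 41 with MNA and 14 to 39 for olaparib against MNA, and those that fell 13 to 33, 0 to 40 and 9 to 33. The highest of each was without MNA replicate 2. For olaparib against MNA, 11 members fell without olaparib replicate 2, 9 without MNA replicate 3 and 10 without MNA replicate 4. A single named value turned, that of Slc39a14 in olaparib against MNA, from -0.09 to 0.21 without MNA replicate 2 (range -0.21 to 0.21 with 1 library left out). A further 58 named values turned sign without a call on either side. RLE scaling changed 0 named calls and upper quartile scaling 1. Depth does not limit members with high counts, but Slc36a2 stood at a few counts in MNA libraries 3 and 4, and its fold change there depends on them.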
